A study of Mus musculus with 8 samples.

Results

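Small nucleolar RNA (snoRNA) host genes are genes whose introns carry snoRNAs. The 10 described here, Gas5, Snhg1, Snhg3, Snhg5, Snhg6, Snhg8, Snhg12, Snhg15, Snhg17 and Snhg20, do not code for protein, and were compared between the chromatin and nucleoplasm fractions of HL1 nuclei. HL1 is a mouse atrial cardiomyocyte line that keeps features of heart muscle in culture. Its nuclei were extracted with urea and a detergent, the pellet was taken as chromatin and the supernatant as nucleoplasm, and synthetic ERCC spike-in RNA was added to each fraction. Ribosomal RNA was depleted, and strand-specific short-read libraries of both fractions were made from 3 independent cultures. The 2 long-read libraries were made from chromatin RNA alone. All cells were the same line grown in the same medium, and no treatment was compared. The 3 nucleoplasm libraries carry the word chromatin in the label for their RNA fraction, and they were assigned by their titles. Each gene was represented by the assembled locus on its strand whose span overlapped it most, provided that the shared span was at least 0.5 of the combined span (the Jaccard index), out of 65265 entries in the short-read table. By this rule 7 of the 10 genes had an entry. Snhg3, Snhg5 and Snhg8 had none, because their nearest loci also held other sequence (Jaccard index 0.249, 0.0495 and 0.2996).

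A snoRNA host gene is transcribed, spliced, and its excised introns are trimmed to release snoRNAs, which enter ribonucleoproteins in the nucleolus. Box C/D snoRNAs guide 2′-O-methylation and box H/ACA snoRNAs guide pseudouridylation, mainly of ribosomal RNA. The spliced remainder of a non-coding host often ends up in the cytoplasm, where many such RNAs, Gas5 among them, are degraded by nonsense-mediated decay. In the GENCODE M21 annotation of mm10, Gas5 held 9 separate snoRNA intervals on its strand (1 of them typed as a snoRNA but named Mir5117), Snhg1 held 8, Snhg12 held 4, Snhg17 held 3, Snhg3 and Snhg5 held 2 each, and Snhg6, Snhg8, Snhg15 and Snhg20 held 1 each. The short reads could not be divided between spliced host RNA, introns and snoRNAs, because the count of a locus includes whatever part of it was assembled.

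The snoRNA sequences of 4 hosts are shown because the long-read table has entries of these names apart from the host RNA, whose spans match the sequences only in part, as given further on. They are GENCODE M21 transcripts on mm10, written 5′ to 3′. Capitals mark TGATGA, the usual box C, and the last CTGA, the usual box D, in the box C/D RNAs, and the last ACA within 12 bases of the 3′ end in the box H/ACA RNAs.
Snora73b, in Snhg3, chr4:132352322-132352526, minus strand: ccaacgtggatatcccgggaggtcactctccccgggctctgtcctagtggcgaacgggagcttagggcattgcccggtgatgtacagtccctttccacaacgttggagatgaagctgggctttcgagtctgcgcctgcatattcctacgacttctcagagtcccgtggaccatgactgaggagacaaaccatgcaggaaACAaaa
Snora61, in Snhg12, chr4:132310240-132310369, plus strand: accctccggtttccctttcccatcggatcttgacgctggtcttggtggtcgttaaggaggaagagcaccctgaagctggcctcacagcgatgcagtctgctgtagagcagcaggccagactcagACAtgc
Snora24, in Snhg8, chr3:123507937-123508066, minus strand: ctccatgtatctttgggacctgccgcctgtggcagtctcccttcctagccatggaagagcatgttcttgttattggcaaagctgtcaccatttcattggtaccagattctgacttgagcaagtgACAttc
Snord99, in Snhg12, chr4:132310691-132310764, plus strand: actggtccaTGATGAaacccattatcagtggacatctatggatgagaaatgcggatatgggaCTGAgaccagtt
Snord22, in Snhg1, chr19:8725866-8725991, plus strand: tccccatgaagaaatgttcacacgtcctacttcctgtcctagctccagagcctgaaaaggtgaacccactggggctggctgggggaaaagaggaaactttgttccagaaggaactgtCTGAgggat
Snord99 held the letters of both boxes, and Snord22 held CTGA without TGATGA. Of 98 annotated Snord genes, 75.5% held TGATGA followed by CTGA, and of 42 Snora genes, 95.2% held ACA in that window.

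Many genes of the translation machinery begin at a C followed by a run of pyrimidines, and some snoRNA hosts, Gas5 among them, are known to share this start. Windows from 20 bases before to 30 bases from a RefSeq start (mm10) are shown for the 5 hosts that held a C followed by at least 4 bases that were each C or T, the C lying within 10 bases of the start. The capitals mark these runs, and this rule was chosen after the sequences were seen.
Gas5, chr1:161035146-161035195, plus strand: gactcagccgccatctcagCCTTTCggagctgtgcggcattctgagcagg
Snhg3, chr4:132353657-132353706, minus strand: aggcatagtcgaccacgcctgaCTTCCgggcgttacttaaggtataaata
Snhg5, chr9:88522868-88522917, minus strand: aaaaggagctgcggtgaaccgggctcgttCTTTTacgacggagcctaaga
Snhg8, chr3:123508307-123508356, minus strand: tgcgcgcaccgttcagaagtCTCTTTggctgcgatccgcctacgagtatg
Snhg12, chr4:132308658-132308707, plus strand: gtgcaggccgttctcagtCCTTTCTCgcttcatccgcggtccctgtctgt
The starts listed for Snhg1, Snhg15, Snhg17 and Snhg20 held no such run, nor did the upstream start of Gas5, and Snhg6 was not in the table of starts. The share was 45.5% over the 11 starts listed for the host genes, 29.7% over all 32851 RefSeq starts and 54.5% over 77 starts of ribosomal protein genes. The run began 2 bases after the start in Snhg3 and 9 bases after it in Snhg5.

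The short-read libraries held 91657034 to 121773350 reads over all entries. Chromatin replicate 3 stood apart for most of the host genes, and not for them alone. Over 15726 entries with a chromatin mean of at least 100 normalized counts, replicate 3 was a median of 0.940 times the mean of replicates 1 and 2, and 4.48% of entries were at 2 times or more. Of the 7 host genes, 4 were at 2 times or more, and their median ratio was 2.20. Among genes with that chromatin mean, the median ratio was 1.59 for other long non-coding hosts, 1.45 for further annotated non-coding hosts, 1.41 for ribosomal protein hosts and 1.12 for other coding hosts. The replicate 3 libraries of both fractions also differed in cell markers. The summed counts of 8 measured atrial cardiomyocyte markers were 345889, 338470 and 227746 in chromatin and 143971, 151969 and 87222 in nucleoplasm (replicates 1, 2 and 3). Ryr2 was the largest part of the chromatin sums, at 177668, 169195 and 101687. The summed counts of 6 fibroblast markers were 120670, 135634 and 174007 in chromatin and 259205, 253853 and 461035 in nucleoplasm. Most of these came from Col1a1 and Col3a1. In chromatin Col1a1 had 101002, 112855 and 115918 counts, and Col3a1 had 18906, 21910 and 56749. Myl4, the atrial essential light chain of myosin, had 10759, 12770 and 3184 counts in chromatin. Gata4, a cardiac transcription factor, had 80244, 77622 and 82875. The 3 measured endothelial markers summed to 1708, 1828 and 1049 counts in chromatin and 2934, 2788 and 1755 in nucleoplasm, most of them from Kdr, and the other 2 were at 0 in every library. The 3 measured macrophage markers summed to 76.8 to 180.05 counts. The part of these differences in the host gene values was not tested, and the fold changes of the host genes are given with and without replicate 3.

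Across 35828 entries above 0 in at least 1 library, tested with limma on log2(normalized count + 1), 26.9% were higher in chromatin and 20.9% were lower at an adjusted p under 0.05. Of the 7 host genes with an entry, Gas5, Snhg1, Snhg12, Snhg15 and Snhg17 were higher in chromatin, Snhg20 was lower, and Snhg6 did not pass. The median log2 fold change was 1.52 over the 7 genes and 0.38 over all entries. The median of all entries moved to 0.84 when libraries were scaled by their ERCC counts and to 0.01 under quantile normalization. It was 0.05 over entries with a mean of at least 10 normalized counts. A fold change therefore depends on the scaling, and on the deposited scale it is relative to the DESeq2 size factors. The ERCC scaling rests on few counts, 517 to 630 normalized counts per library in chromatin and 772 to 1205 in nucleoplasm. Library by library, the 6 genes that passed showed no overlap between fractions, and neither did Snhg6. Over all entries, 31.5% had every chromatin library above every nucleoplasm library and 23.8% had every one below.

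**Figure D1:**
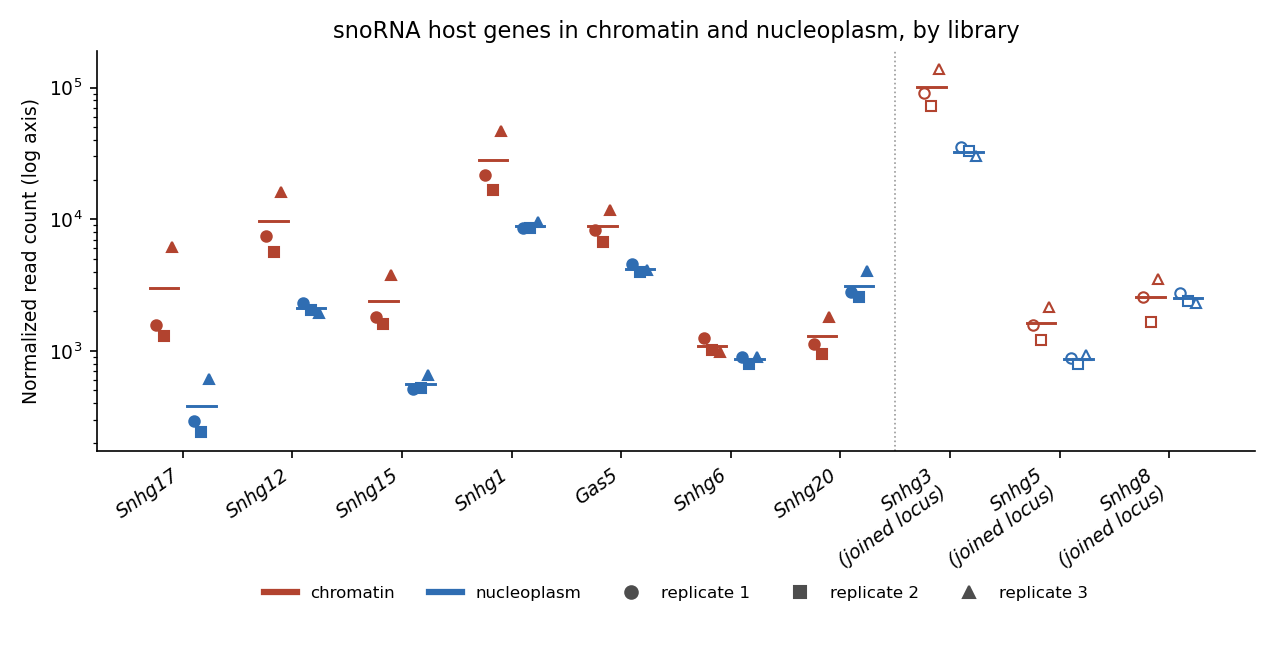
Normalized read counts (log axis) of the snoRNA host genes in 3 chromatin and 3 nucleoplasm libraries. Symbols are replicates, horizontal lines are group means, and open symbols right of the dotted line are loci that join Snhg3, Snhg5 or Snhg8 to other sequence. Chromatin replicate 3 is the highest chromatin library for every gene except Snhg6.

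Snhg17 had the largest fold change of the 7. Its chromatin counts were 1566, 1307 and 6191 in replicates 1, 2 and 3, and its nucleoplasm counts were 294, 239.7 and 608. Replicate 3 was the highest library in both fractions, and the lowest chromatin library was still above the highest nucleoplasm library. The log2 fold change was 2.73 ± 0.67 (SE, n = 3 per fraction, limma adjusted p = 0.0166), or 6.65-fold. Without chromatin replicate 3 it was 2.03 (adjusted p = 0.017), and without replicate 3 of both fractions 2.43 (adjusted p = 0.00146). The call was lost without nucleoplasm replicate 1 (adjusted p = 0.0553) or without nucleoplasm replicate 2 (adjusted p = 0.0586), with log2 fold changes of 2.61 and 2.46. The gene lies at chr2:158353700-158361580 on the minus strand, and its 3 annotated snoRNAs have only model names.

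Snhg12, which carries 4 snoRNAs of both classes in 2402 bases (chr4:132308623-132311024, plus strand), had 7433, 5616 and 15976 counts in chromatin and 2328, 2028 and 1945 in nucleoplasm. The 3 nucleoplasm libraries lay close together, and the chromatin libraries did not. Chromatin was higher by 2.06 ± 0.38 on the log2 scale (SE, n = 3 per fraction, adjusted p = 0.00515). Without replicate 3 of both fractions it was 1.57 (adjusted p = 0.00471).

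Snhg15, the host of Snora9 (chr11:6525591-6528760, minus strand), had 1815, 1594 and 3753 counts in chromatin against 511, 525 and 652 in nucleoplasm. Here too replicate 3 was the highest of each fraction. Its log2 fold change was 1.98 ± 0.33 (SE, n = 3 per fraction, adjusted p = 0.00352), and 1.71 without replicate 3 (adjusted p = 0.00101). Its locus ran 5720 bases against the 3170 of the annotated gene, so sequence beyond the gene was counted with it.

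Snhg1, the gene that carries Snord22 and 7 further snoRNA intervals (chr19:8723475-8726443, plus strand), had 21619, 16764 and 46926 counts in chromatin and 8631, 8606 and 9607 in nucleoplasm. Its chromatin libraries spanned a wide range, whereas its nucleoplasm libraries had an SD of 571. The log2 fold change was 1.52 ± 0.37 (SE, n = 3 per fraction, adjusted p = 0.0166). Without replicate 3 it was 1.14 (adjusted p = 0.00659). As for Snhg17, the call was lost without nucleoplasm replicate 1 (adjusted p = 0.0522) or nucleoplasm replicate 2 (adjusted p = 0.0537), with log2 fold changes of 1.4998 and 1.498.

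Gas5, named for its rise in growth-arrested cells and known as a decoy for the glucocorticoid receptor, had 8249, 6681 and 11730.1 counts in chromatin. Its nucleoplasm counts were 4564, 3950.4 and 4139. The lowest chromatin library was 6681 and the highest nucleoplasm library 4564. The log2 fold change was 1.04 ± 0.21 (SE, n = 3 per fraction, adjusted p = 0.00761), or 2.05-fold, and 0.81 without replicate 3 (adjusted p = 0.0163). Gas5 lies at chr1:161034422-161038539 on the plus strand.

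Snhg20 moved in the opposite direction. Its chromatin counts were 1136, 950.5 and 1804, and its nucleoplasm counts were 2793, 2579 and 4027, with replicate 3 highest in each. The log2 fold change was -1.30 ± 0.28 (SE, n = 3 per fraction, adjusted p = 0.0106), so the gene was 2.46-fold lower in chromatin, and -1.37 without replicate 3 (adjusted p = 0.00241). With ERCC scaling it was -0.54 (adjusted p = 0.382), and the call was lost. Snhg20 (chr11:117076008-117078955, plus strand) carries a single small Cajal body RNA, a relative of snoRNAs that guides modification of spliceosomal RNAs.

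Snhg6, the host of Snord87 (chr1:9941959-9944118, minus strand), had 1242, 1018 and 985 counts in chromatin and 901, 789.8 and 901 in nucleoplasm. It was the only member whose chromatin replicate 3 was not above the mean of the other two. Its log2 fold change was 0.32 ± 0.12 (SE, n = 3 per fraction, adjusted p = 0.0815), with a 95% interval of 0.02 to 0.62 before adjustment, so differences above that bound lay outside the interval. Without replicate 3 of both fractions it was 0.41 (adjusted p = 0.0796). It passed with ERCC scaling (1.07, adjusted p = 0.0118) and quantile normalization (0.60, adjusted p = 0.00719). Snhg6 also passed, at an unchanged 0.32, when libraries sharing a number were paired in limma (adjusted p = 0.0431). The labels do not state this pairing.

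Snhg3, Snhg5 and Snhg8 could be read only inside longer loci, and these values were set beside the others after the data were seen. Snhg3, the host of Snora73a and Snora73b, was part of a locus of 22763 bases that also covers Rcc1, the nucleotide exchange factor of the Ran GTPase. That locus had 91129, 71994 and 138860 counts in chromatin and 35289.9, 32790 and 30064 in nucleoplasm (log2 fold change 1.57 ± 0.25, SE, adjusted p = 0.00283), and the shares of Snhg3 and Rcc1 in it cannot be told apart. Without replicate 3 of both fractions its log2 fold change was 1.25, that of the Snhg5 locus was 0.71 and that of the Snhg8 locus was -0.33 (adjusted p = 0.00537, 0.0284 and 0.365). The locus of Snhg5, which carries Snord50a and Snord50b, spanned 37332 bases against 1880.0 for the gene and had 1566, 1209 and 2146 counts in chromatin and 883, 797 and 933 in nucleoplasm (0.88 ± 0.21, SE, adjusted p = 0.0165). The locus of Snhg8, the host of Snora24, spanned 2552 bases and had 2548, 1642 and 3507 counts in chromatin and 2772, 2401 and 2324 in nucleoplasm. Its fractions overlapped (log2 fold change -0.03, 95% interval -0.70 to 0.65, adjusted p = 0.948).

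**Figure D2:**
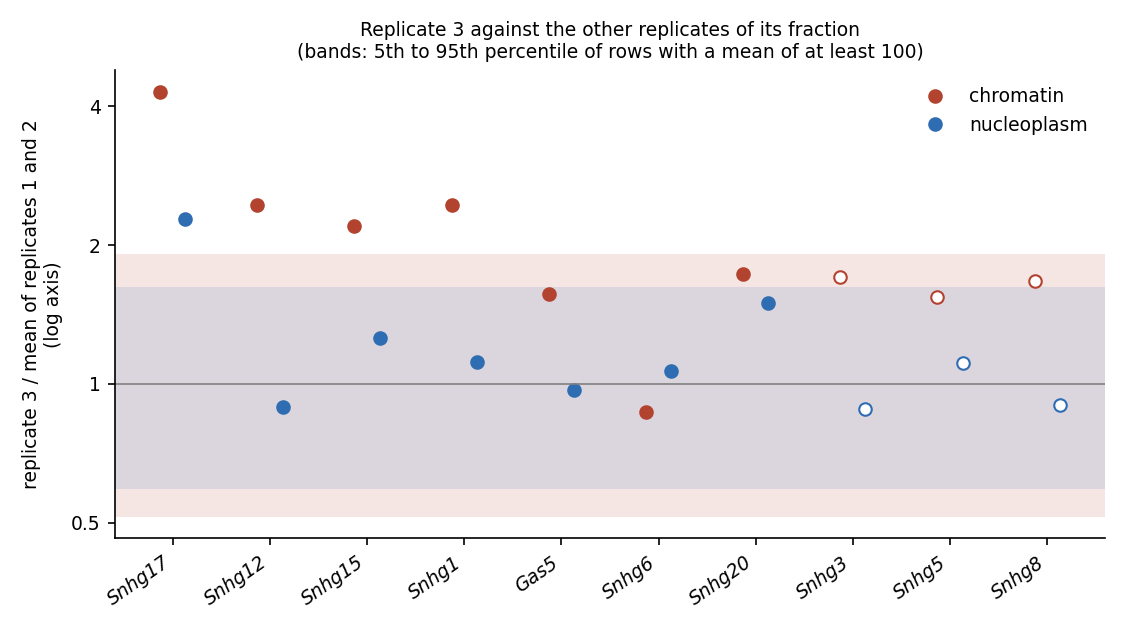
Counts of replicate 3 divided by the mean of replicates 1 and 2 of the same fraction (log axis), for the host genes in chromatin (red) and nucleoplasm (blue), open for joined loci. The bands hold the 5th to 95th percentile of entries with a mean of at least 100, 0.514 to 1.91 in chromatin and 0.591 to 1.63 in nucleoplasm, and Snhg1, Snhg12, Snhg15 and Snhg17 lie above the chromatin band.

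The spread of the chromatin values followed replicate 3 in most of the host genes. Chromatin replicate 3 was 4.31 times the mean of the other two for Snhg17, 2.45 times for Snhg12, 2.44 times for Snhg1 and 2.20 times for Snhg15. It was 1.73 times for Snhg20, 1.57 times for Gas5 and 0.871 times for Snhg6. At a threshold of 1.5 times, 6 of the 7 genes passed, against 9.19% of 15726 entries. In nucleoplasm the ratio was 2.28 for Snhg17, 1.499 for Snhg20, 1.26 for Snhg15 and 0.893 to 1.11 for the other four. Replicates 1 and 2 of chromatin were closer to each other. Replicate 1 was higher in all 7 genes by 1.14 to 1.32 times, against a median of 1.005 times over the 15726 entries.

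Transcripts with an adjusted p under 0.05, more than 4-fold higher in chromatin and longer than 200 bases are called chromatin-enriched RNA (cheRNA) in this study, and 15.4% of the 35828 entries met these thresholds here. Snhg12 and Snhg17 were the 2 host genes that met them. In the limma fit Snhg15, at 3.95-fold, lay just under the fold threshold, and Snhg12, at 4.17-fold, lay just over it. With chromatin replicate 3 left out, or replicate 3 of both fractions, Snhg17 alone met them, since Snhg12 fell to 1.63 and 1.57 on the log2 scale. Snhg15 met them too with DESeq2, the tool used by the study (log2 fold change 2.08, adjusted p = 3.02e-08), and with quantile normalization (2.17), so that 3 host genes were then called. Without chromatin replicate 1, chromatin replicate 2 or nucleoplasm replicate 3 the count was also 3, and without nucleoplasm replicate 1 or nucleoplasm replicate 2 it was 1, Snhg12. With ERCC scaling Snhg1, Snhg12, Snhg15 and Snhg17 met them.

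To compare levels between genes, mean counts were divided by the length of the gene's exons in kilobases, overlapping exons counted once. In chromatin Snhg1 had the highest level, 9578 ± 5455 normalized counts per kilobase (SD, n = 3). Snhg12 followed at 4028 ± 2303, Gas5 at 2364 ± 687, Snhg15 at 1757 ± 874 and Snhg6 at 944 ± 122. Snhg20 at 464 ± 161 and Snhg17 at 428 ± 389.7 were lowest. Neighbours in this order had overlapping ranges of libraries, except Snhg15 against Snhg6 and Snhg6 against Snhg20. Within each library, however, Snhg1, Snhg12, Gas5, Snhg15 and Snhg6 kept this order, while Snhg17 was above Snhg20 in replicate 3 (878 and 645). In nucleoplasm Snhg1 was again highest, at 3014 ± 192, with no overlap with Gas5 at 1122 ± 83.5. Gas5 and Snhg20, at 1121 ± 279.5, overlapped. Snhg20 overlapped Snhg12, at 874 ± 84.0, although Snhg20 was higher within each library. Snhg12 did not overlap Snhg6, at 754 ± 56.1. Snhg15 at 414 ± 56.9 and Snhg17 at 54.0 ± 28.2 did not overlap each other or Snhg6. So Snhg20 was near the bottom of the order in chromatin and tied with Gas5 in nucleoplasm. Without chromatin replicate 3 the median chromatin level of the 7 genes fell from 1757 to 1254 counts per kilobase. These levels are coarse, because retained-intron transcripts make the annotated exons cover 42.9% (Snhg15) to 100% (Snhg1, Snhg12) of the gene's span. The counts are also of the assembled locus, which can run beyond the gene. It spanned 5720 bases against 3170 for Snhg15 and 3882 against 2969 for Snhg1. The places of these genes in both orders may therefore be too high, and the median of 1757 is the level of Snhg15 itself.

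**Figure D3:**
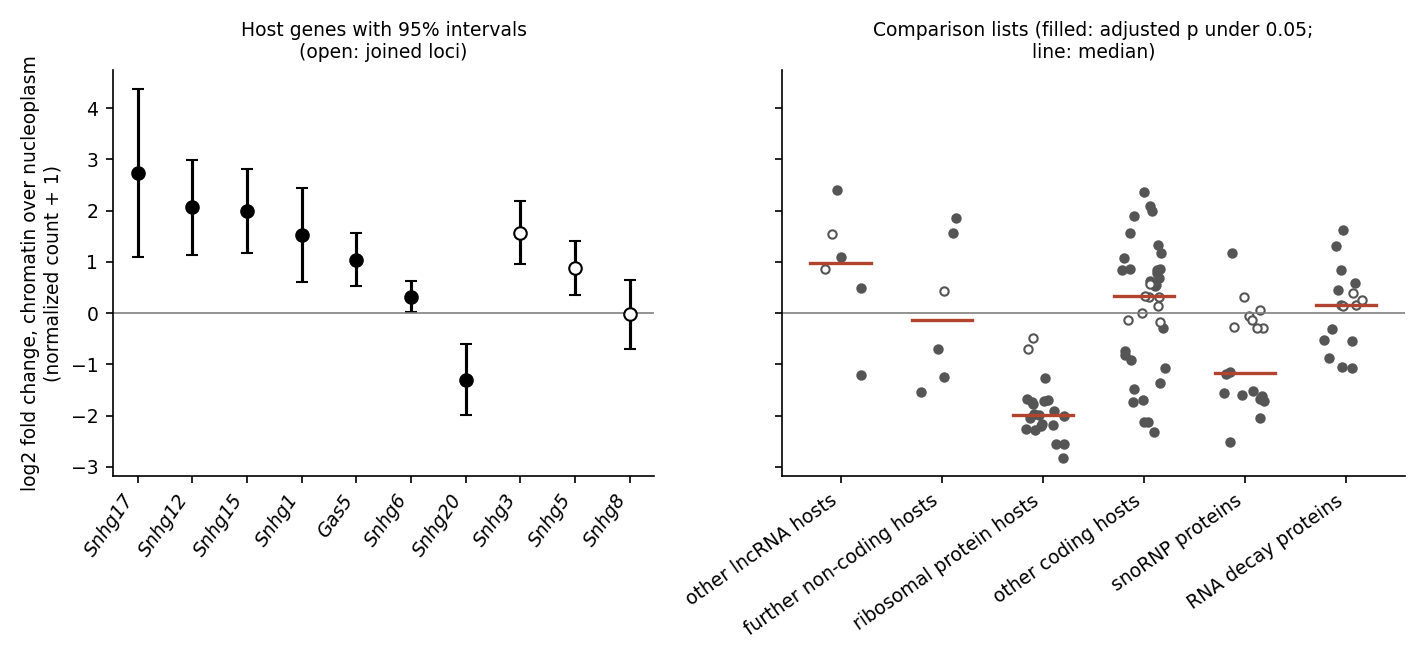
Log2 fold changes of normalized count + 1, chromatin over nucleoplasm. Left, the host genes with 95% intervals from limma (open for joined loci). Right, 1 point per gene of each comparison list, filled where the adjusted p was under 0.05, with the median as a red line. The ribosomal protein hosts lie below 0, at -2.83 to -0.48.

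The other hosts of snoRNAs gave a background for these values. Among 11 further long non-coding host names, 6 had an entry, of which 3 were higher in chromatin, 1 was lower and 2 did not pass. Snhg9 rose with a log2 fold change of 1.10 (adjusted p = 0.0417), and Zfas1, the host of Snord12 family RNAs, with 0.48 (adjusted p = 0.0171). Snhg18 was lower, at -1.21 (adjusted p = 6.50e-04), with 443, 441 and 372 counts in chromatin and 1071, 1008 and 834 in nucleoplasm. Epb41l4aos did not pass (0.85, adjusted p = 0.121), nor did Snhg14, at 0 to 5.08 counts. Snhg11 passed at 3.05 to 13.5 counts in chromatin and 0 to 1.45 in nucleoplasm, which are few reads. Without replicate 3 of both fractions only 1 of the 6 was higher. Snhg4, Snhg7 and Snhg16 matched no gene name of the annotation, and Snhg10 and Dancr had no entry by the rule.

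A further 10 non-coding genes of the annotation contained a snoRNA, and of the 6 with an entry 2 were higher, 3 were lower and 1 did not pass. The 2 higher ones were 1810032O08Rik (1.85, adjusted p = 0.00235) and AA465934 (1.57, adjusted p = 1.94e-04). The lower ones were Rab26os (-1.55, adjusted p = 1.44e-04), 2410006H16Rik (-0.70, adjusted p = 0.0244) and Cct6a (-1.25, adjusted p = 0.00311), a chaperonin gene that this annotation types as a processed transcript.

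Protein-coding hosts differed by class. Of 24 ribosomal protein genes with a snoRNA inside, 21 had an entry, 19 were lower in chromatin and none was higher, with a median log2 fold change of -1.99. All 21 fold changes in limma were below 0 on the log2 scale, and edgeR and DESeq2 also called none higher. The largest were Rplp2 (-2.83, adjusted p = 2.28e-05), a protein of the ribosomal stalk, Rpl39 (-2.55, adjusted p = 4.26e-04) and Rpl23a (-2.55, adjusted p = 2.30e-05), both of the large subunit. Rps3 (-0.48, adjusted p = 0.363) and Rpsa (-0.69, adjusted p = 0.145) did not pass. In these 2 genes chromatin replicate 3 was 2.26 and 2.25 times the mean of the other two, near the ratios of Snhg1 and Snhg15.

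Of 48 other protein-coding hosts, 37 had an entry, 17 were higher, 12 were lower and 8 did not pass, with a median of 0.33. The 17 include Rcc1, whose entry is the locus joined to Snhg3, and Nop58. Higher were Eif4a2, an initiation factor helicase (2.35, adjusted p = 0.00174), and Cep295, a centriole protein (2.09, adjusted p = 3.42e-05). Lower were Tpt1 (-2.31, adjusted p = 4.43e-05), itself a translationally controlled mRNA, Eef1b2, an elongation factor subunit (-2.13, adjusted p = 2.35e-05), and Atp5b, a subunit of ATP synthase (-2.12, adjusted p = 1.61e-04). Eif4a2 had 44144, 32320.1 and 78876 counts in chromatin, so its replicate 3 was also high, at 2.06 times. Cep295 was at 1.00 times. Gapdh (-2.07, adjusted p = 8.93e-04) and B2m (-2.67, adjusted p = 3.26e-05), mRNAs of glycolysis and antigen presentation, were lower in chromatin, and Malat1, a nuclear long non-coding RNA, was higher (3.82, adjusted p = 3.84e-05).

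The proteins that assemble with snoRNAs were mostly encoded by mRNAs that were lower in chromatin. Of 18 genes, 10 were lower, 1 was higher and 7 did not pass, with a median log2 fold change of -1.16. Nop10 (-2.52, adjusted p = 0.00198), a core protein of box H/ACA particles, Snu13 (-2.05, adjusted p = 7.53e-05), which binds the box C/D kink-turn, and Fbl (-1.71, adjusted p = 1.71e-04), the methyltransferase of box C/D particles, were the lowest. The exception was Nop58, a core protein of box C/D particles that is itself counted among the coding hosts above, as is Nop56 (1.17 for Nop58, adjusted p = 0.0205), with 28955, 25826 and 53371 counts in chromatin and 14383, 13001 and 18655 in nucleoplasm. With ERCC scaling 5 of the 18 were lower and 2 were higher, and without replicate 3 of both fractions 12 were lower and 1 was higher.

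Of 17 genes for the decay of host transcripts and introns, 16 had an entry, 5 were higher, 6 were lower and 5 did not pass, with a median of 0.16. Upf3b, a nonsense-mediated decay factor (1.63, adjusted p = 1.38e-04), Xrn2, the nuclear 5′-to-3′ exonuclease (1.30, adjusted p = 0.00198), and Xrn1, its cytoplasmic relative (0.83, adjusted p = 4.58e-04), were higher. Dbr1, which opens intron lariats (-1.07, adjusted p = 0.00377), Smg8 (-1.05, adjusted p = 5.60e-04) and Upf1, the helicase of nonsense-mediated decay (-0.88, adjusted p = 0.00322), were lower. With ERCC scaling 9 of the 16 were higher and none was lower. These values are of mRNA in nuclear fractions.

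The long-read libraries gave chromatin RNA only, as TPM (transcript abundance corrected for length and library size) of annotated and assembled transcripts, with no nucleoplasm to compare. Same-strand transcripts lying inside the gene were summed, which includes Snhg3, Snhg5 and Snhg8. All 10 hosts were above 0 in both libraries. Gas5 was highest, at 499.9 TPM in replicate 1 and 310.4 in replicate 2. Snhg12 had 262 and 131, and Snhg3 had 322 and 62.3. Snhg8 had 77.2 and 37.96, Snhg6 had 75.5 and 22.5, Snhg20 had 67.0 and 31.9, and Snhg5 had 44.4 and 27.4. Snhg15 (29.0 and 6.45), Snhg1 (23.3 and 8.53) and Snhg17 (2.65 and 1.17) were lowest by this sum. The sum of Snhg1 held its Snord22 entry alone, and was 95.8 and 33.9 TPM with every overlapping same-strand transcript counted. Replicate 1 was the higher library for 10 of 10 hosts, by 1.61 to 5.17 times, and this order of genes rests on 2 libraries that differ by that much. Among 5186 annotated genes with a mean of at least 10 TPM, replicate 1 was higher in 55.2% and at least 1.5 times higher in 22.3%. Among 104 named small RNA entries above 0 in both libraries it was at least 1.5 times higher in 56.7%. The minimum read quality at basecalling also differed between the long-read libraries. For coverage analyses between replicates, the study then filtered replicate 1 to the minimum of replicate 2. Whether the TPM used here come from the filtered reads is not stated, and the part of read quality in these ratios was not tested.

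**Figure D4:**
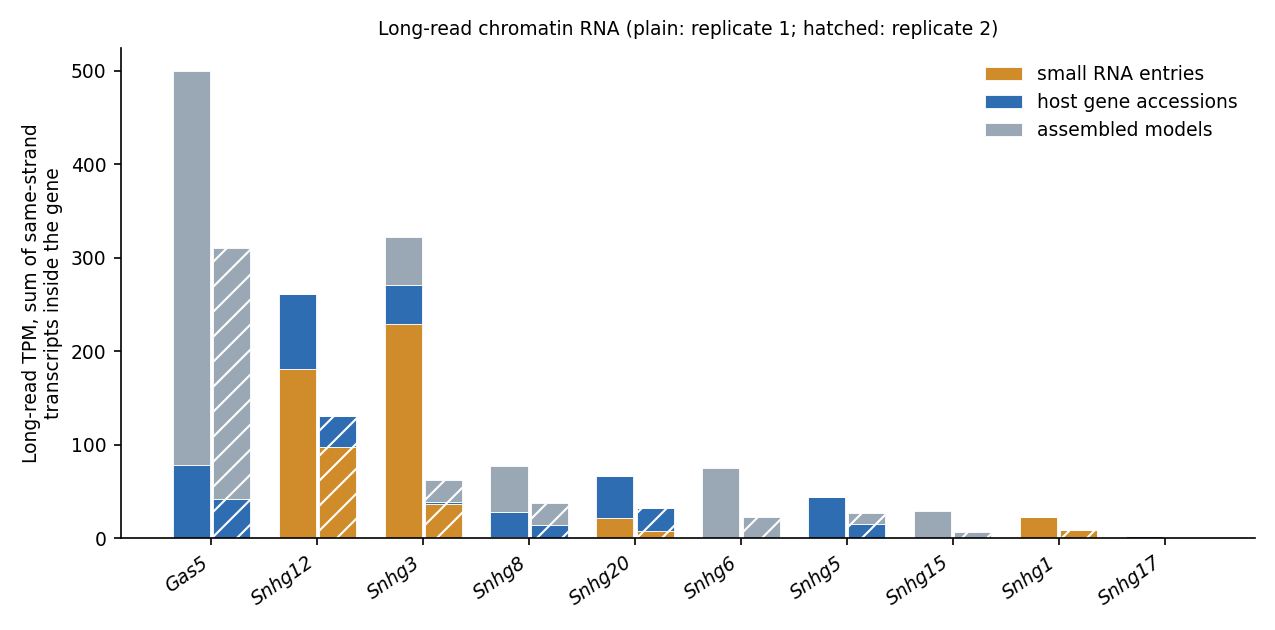
Long-read TPM of same-strand transcripts inside each host gene, summed by kind, in chromatin replicate 1 (plain bars) and replicate 2 (hatched bars). Orange is small RNA entries, blue is accessions of the host gene, and grey is assembled models. Small RNA entries make up most of Snhg3 and Snhg12 and all of Snhg1.

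The long-read table also lists entries named for snoRNAs apart from their hosts. In Snhg3, the Snora73b entry had 228 and 35.5 TPM, against 41.6 and 2.53 for the Snhg3 accession, and small RNA entries were 69.2% of the summed TPM of both libraries. In Snhg12, Snord99 had 78.4 and 50.2 TPM, Snora61 75.6 and 31.0, Snora44 23.0 and 13.9, and Snora16a 4.01 and 2.22, beside 80.8 and 33.7 for the Snhg12 accession. Small RNA entries were 69.1% of its TPM in replicate 1 and 74.3% in replicate 2. The order Snord99, Snora61, Snora44 and Snora16a was the same in both libraries.

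In Snhg1 the Snord22 entry was the sole transcript inside the gene, at 23.3 and 8.53 TPM. Longer assembled models extended past the annotated end, and with every overlapping same-strand transcript counted, Snhg1 had 95.8 and 33.9 TPM. Entries in other hosts were lower. Snora24 in Snhg8 had 1.08 and 0.263 TPM, Snord87 in Snhg6 had 0.0214 and 0.0926, and Snord47 in Gas5 had 0.0638 and 0.106. In Snhg20 a microRNA entry, Mir6516, had 21.8 and 7.49 TPM beside 45.2 and 24.5 for the host. No small RNA entry above 0 was listed in Snhg5, Snhg15 or Snhg17, and Snord47 was the sole one in Gas5, so most snoRNAs of these hosts were not measured. The entries do not have the span of the annotated snoRNA. The entry of Snora61 is 144 bases long and shares 63 bases with the snoRNA shown above, and that of Snord99 is 131 bases long and shares 62. The entries of Snora73b, Snora24 and Snord22 cover the whole snoRNA and run past it, at 297, 174 and 201 bases. Their TPM are therefore values of these spans, and reads of host RNA could not be separated from reads of the snoRNA.

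Assembly was guided by annotation, so an assembled long-read model can take its start from it, and the starts are given as a description. Of 17 assembled models overlapping 6 hosts with a RefSeq start, 13 began within 10 bases of one, and each of the 6 hosts (Gas5, Snhg1, Snhg3, Snhg5, Snhg8 and Snhg15) had at least 1 such model. The most abundant Gas5 model, at 306 and 186 TPM, began 2 bases before the start whose sequence is shown, which lies 744 bases inside the annotated gene. The models of Snhg5, Snhg8 and Snhg15 began at the RefSeq start itself. Transcripts assigned to the opposite strand inside the gene were highest for Snhg20, at 124 and 54.7 TPM, above its own strand, and for Gas5, at 66.1 and 53.7. The cDNA kit does not mark strand, and the strand of these values was not tested.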

How the data were processed

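HL1 chromatin and nucleoplasm RNA (3 short-read libraries each, 100 ng RNA, 50 bp reads) and chromatin RNA (2 long-read libraries) were analysed. The members and gene lists were chosen with earlier results of these data known.

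Short reads were aligned by the authors to mm10 with hisat2 2.1.0, assembled with StringTie guided by annotation, merged across fractions and counted. The deposited signal is that count divided by DESeq2 size factors, and steps of 1 read were recovered for 100% of values (tolerance 0.01). The long-read values are TPM that the authors estimated with StringTie after minimap2 alignment. Recovered reads served only alternatives.

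Normalized counts plus 1 were put on a log2 scale and entries tested in limma 3.58.1 (R 4.3.3), the prior variance following a trend with the mean, with Benjamini-Hochberg adjustment. RefSeq rows of a gene were summed only where no locus met the rule. Fold changes on this scale understate changes of low genes. Replicates came from separate cultures and differed beyond sampling noise. Named genes were all members, all measured further non-coding hosts, controls, and from each other list the 3 largest changes in each direction with an adjusted p under 0.05 and a mean of at least 100, of which 1 gene is not reported here. Fewer cells of a type and less RNA per cell cannot be told apart. Scripts were tested on simulated counts. Alternatives changed pseudocount, filter, trend, scaling, tool (edgeR 4.0.16, DESeq2 1.42.0) and libraries. HAP1 libraries were not analysed here.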

Additional observations from a re-analysis of the deposited data

How the results depend on the processing

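All 7 host genes kept the direction of their fold change under all 18 other settings. The count of genes higher in chromatin (5) was 3 with no filter on low values, and 3 to 5 with 1 library left out. The count lower (1) was 0 with ERCC scaling. The cheRNA count (2) was 4 with ERCC scaling, 1 with TMM scaling, 1 with no filter, 3 with DESeq2, 3 with quantile normalization, 5 at a 2-fold threshold, and 1 to 3 with libraries left out. With no filter Snhg1 (adjusted p = 0.067) and Snhg17 (adjusted p = 0.0685) did not pass.

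Of the comparison lists, further long non-coding hosts (3 higher, 1 lower) had 0 lower with ERCC scaling, and 1 higher with edgeR, with no filter and without the trend, and 0 to 3 with libraries left out. With ERCC scaling the count lower was 1 for annotated non-coding hosts (3) and 4 for other coding hosts (12), snoRNP genes had 2 higher and 5 lower (1 and 10), and decay genes 9 higher and 0 lower (5 and 6). snoRNP genes had 0 higher with no filter, and 0 to 2 with libraries left out. The joined locus of Snhg8 turned positive with DESeq2 (0.038), ERCC scaling (0.73), quantile normalization (0.15), without chromatin replicate 2 (0.26) and without nucleoplasm replicate 1 (0.05), at adjusted p of 0.157 to 0.926, and ranged from -0.33 to 0.26 with libraries left out. The median chromatin level of 1757 counts per kilobase was 3477 by the longest transcript and 753 by the span.

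Libraries sharing a replicate number had correlated deviations of 0.0975, 0.0883 and 0.222, against -0.138 to 0.0606 otherwise. Each library thus correlated best with its own number. The paper states that both fractions came from 3 independent cultures. The labels do not say that a shared number marks a shared culture, and the main fit did not take the numbers as pairs. The SEs and adjusted p given for single genes are therefore unpaired. A limma fit that paired libraries by number gave 6 genes higher and 1 lower, Snhg6 being added (adjusted p = 0.0431). Pairing left the fold changes as they were. The adjusted p fell for Snhg17 (0.00123), Snhg20 (4.78e-04), Snhg15 (0.00233) and Snhg1 (0.014). It rose for Gas5 (0.00977) and Snhg12 (0.0107).

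No snoRNA entry of the short-read table was above 0, so their fraction contrast was not run. Taking RefSeq rows alone gave an entry for 0 members and rows inside the gene for 2, so no count is given. Precision is limited by 3 libraries per fraction.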
